A study of Mus musculus with 2 samples.

Results

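The genes described here encode the main heat shock proteins of the cytosol and of the mitochondrial matrix. They are Hspa1a, Hspa1b, Hspa8, Hsph1, Dnajb1, Hspb1, Hsp90aa1, Hsp90ab1, Hspd1 and Hspe1, 10 genes chosen by name. Earlier results of these data were known when they were chosen. A probe was assigned to a gene through its RefSeq accession, which gave 14 probes for 9 of the 10 genes, and all 14 were well above background on both arrays. No probe carried an accession of Hspa1b, so Hspa1b has no value. Accessions named 20656 genes on the array in all, of which 15733 had at least 1 probe well above background on both arrays and are called measured genes below.

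Total RNA of male C57Bl/6 N mice aged 12 weeks was compared between animals with both copies of the interleukin-18 gene (Il18+/+) and animals with neither (Il18-/-). Each genotype was represented by 1 pool of RNA from 7 mice, read on 1 one-colour Agilent array. Which allele or construct removed the gene is not stated in the sources used here. The sample labels name hippocampus, whereas the extraction text and part of the design text name prefrontal cortex. Levels are log2 signals minus the 75th percentile of all spots of the array other than control spots. A difference is the Il18-/- level minus the Il18+/+ level. As there was 1 pool of each genotype, differences could not be checked against replicates, none was tested, and precision is limited by having only 2 arrays. In tissue RNA, fewer cells of a type and less RNA per cell cannot be told apart.

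Probes well above background made up 67.2% of all probes in Il18+/+ and 65.4% in Il18-/-. The Il18 probe, for the targeted gene, had a level of 1.37 in Il18+/+ and of -0.12 in Il18-/-, where it was still well above background, and its place relative to the deleted part is not known here. All 6 dentate gyrus markers and all 6 neocortical markers looked at were measured, so neither tissue name lacked its markers. Differences of all measured genes had a median of 0.01, and their 5th and 95th percentiles were -0.45 and 0.33. Repeated spots of a probe gave a median standard deviation of 0.07 for a single-spot difference over 304 probes, and of 0.05 over the 74 of these with a level above 2, a spread that holds the technical error of a spot and not that of labelling, pools or animals. At least 1.5-fold, 405 measured genes were lower and 264 higher in Il18-/-. This split was 317 and 320 when the medians of the arrays were aligned, 324 and 311 with quantile normalization, 287 and 329 with loess, 550 and 220 on the scale of the authors' deposited table, and 1840 and 127 under scaling to spike-in controls.

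Heat shock proteins are chaperones that bind unfolded or newly made proteins and help them fold. HSP70 proteins take up exposed stretches of a client under the control of J-domain partners and nucleotide exchange factors, HSP90 finishes the folding of kinases and steroid receptors, small heat shock proteins hold unfolded clients, and the chaperonin of mitochondria encloses proteins in a chamber. Some of these genes, such as Hspa8 and Hsp90ab1, are transcribed at all times and strongly in neurons, while others, such as Hspa1a, Hspa1b, Hspb1 and Dnajb1, are switched on by heat and other protein-damaging stress through heat shock factor 1. That factor binds repeats of the unit GAA and its inverse TTC upstream of its targets.

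Promoters are shown for the member genes that differed most, Hspb1 and Hspa1a, and for the region between Hspd1 and Hspe1, which both of these genes share. They come from RefSeq, build GRCm38.p6, which held promoters for 7 of the 10 genes. Capitals mark a pair of heat shock units, GAANNTTC or TTCNNGAA. The Hspb1 stretch is chr5:135887669-135887918 on the plus strand, the Hspa1a stretch chr17:34972157-34972406 on the minus strand, both being the 250 bases before the start of the gene. The stretch between the starts of Hspd1, which runs to the left, and Hspe1, which runs to the right, is chr1:55087933-55088147 on the plus strand, 215 bases long.
Hspb1: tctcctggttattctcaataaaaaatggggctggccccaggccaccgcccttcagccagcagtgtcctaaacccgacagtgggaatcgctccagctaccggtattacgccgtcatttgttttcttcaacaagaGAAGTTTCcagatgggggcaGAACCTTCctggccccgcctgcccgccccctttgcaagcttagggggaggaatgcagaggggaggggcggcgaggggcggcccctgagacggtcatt
Hspa1a: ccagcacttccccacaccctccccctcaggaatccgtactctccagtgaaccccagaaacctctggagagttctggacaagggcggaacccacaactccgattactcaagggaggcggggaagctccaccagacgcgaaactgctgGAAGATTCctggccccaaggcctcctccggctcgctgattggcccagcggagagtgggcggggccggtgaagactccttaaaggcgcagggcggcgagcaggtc
Hspd1-Hspe1: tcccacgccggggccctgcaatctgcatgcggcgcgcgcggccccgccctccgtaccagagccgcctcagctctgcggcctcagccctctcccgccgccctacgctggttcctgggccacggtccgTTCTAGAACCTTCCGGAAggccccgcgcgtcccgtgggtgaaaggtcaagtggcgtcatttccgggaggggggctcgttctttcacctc

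Hspb1 held GAANNTTC at 117 and at 97 bases before its start, and Hspa1a held it once, at 104 bases. Between Hspd1 and Hspe1 the units followed each other without a gap, from 89 bases before the start of Hspe1. Hsph1 held TTCNNGAA at 33 bases before 1 of its listed starts, and neither listed start of Dnajb1 had a pair in this window. In all, 6 of the 7 genes with a promoter held a pair, on either strand, before at least 1 listed start. Of the 32851 promoters in the table, 12.8% held a pair. The shares were 6.69% for GAANNTTC and 7.17% for TTCNNGAA, each of which reads the same on both strands. These promoters belong to 27025 genes, so the shares count starts, whereas the member count is of genes. The 6 include Hspd1 and Hspe1 with their common region. They also include Hspa1a and Hspa1b, whose 250 bases were identical at 247 positions and differed by C44T, T47C and T249G, counted from the 5′ end with the Hspa1a base first. A run of 3 units stood in 0.466% of all promoters, in that of Hspe1 and before 1 listed start of Hspd1. The other listed start of Hspd1 had neither a run nor a pair. The other motifs searched, on either strand, were TATAAA, in 12.4% of all promoters and in none of these 7 genes, CCAAT, in 33.8% of all, and GGGCGG, in 32.7% of all. CCAAT stood upstream of Hspa1a, Hspa1b, Hsph1 and 1 listed start of Dnajb1, and GGGCGG upstream of all 7 genes. A match describes the letters and does not show binding.

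How the members differed between the genotypes was the main comparison. The members with the lowest differences were the cytosolic genes Hspb1, Hspa1a, Dnajb1 and Hsph1, a grouping made from these values. They were lower in Il18-/-, with log2 differences of -0.52, -0.43, -0.25 and -0.14. They were below 0 in all 13 other processing settings, but with 1 probe each, Hspb1, Hspa1a and Dnajb1 could not move in the 5 settings that change filters or the choice of probes, and 3 others shift all genes alike. The 5 that could reorder genes (quantile, loess, normexp, no background correction and subtraction of the nearest spots) gave -0.59 to -0.45 for Hspb1, -0.47 to -0.37 for Hspa1a, -0.33 to -0.24 for Dnajb1 and -0.21 to -0.13 for Hsph1. Hspa8, Hsp90aa1 and Hsp90ab1, the other cytosolic members measured, had differences of -0.05 to 0.00. The mitochondrial pair Hspd1 and Hspe1 read higher by 0.07 and 0.13, which turned to -0.24 and -0.18 under scaling to spike-in controls. Of the 9 measured members 6 were lower and 3 higher, where 47.4% of all measured genes were lower and 52.6% higher. At 1.2-fold, 2 members were lower and 0 higher, against 12.4% and 7.33% of all measured genes, and at 1.5-fold 0 members were lower and 0 higher, against 2.57% and 1.68%. The median difference of the 9 members was -0.05. With 9 genes on 1 pair of arrays these counts do not set the members apart from other genes.

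**Figure D1:**
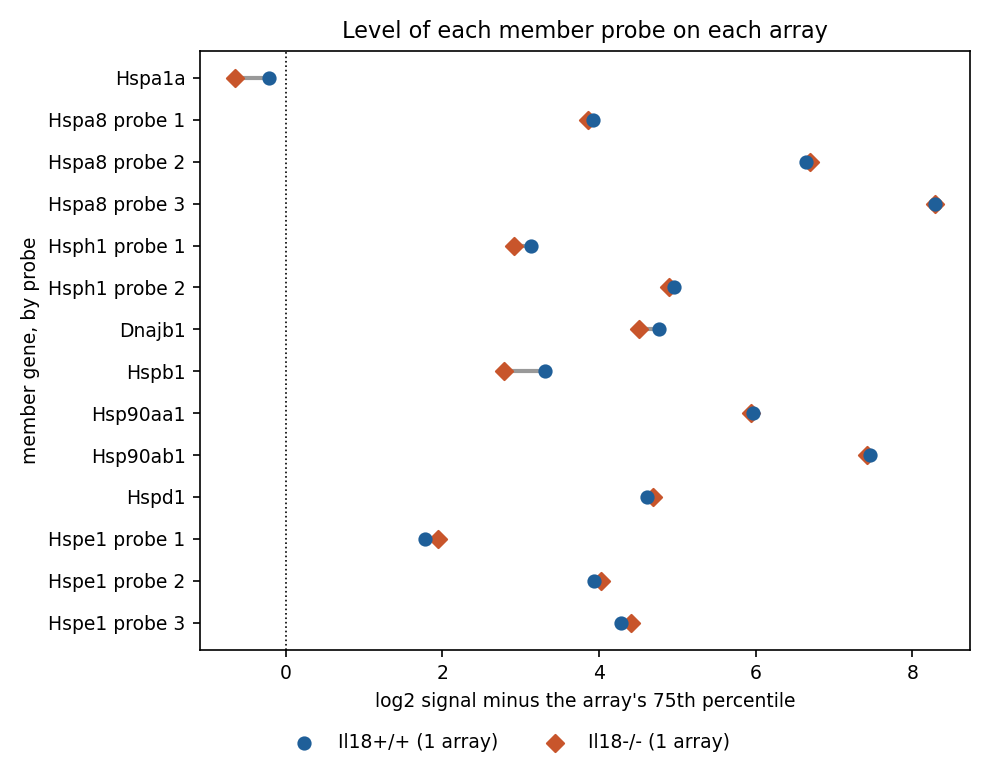
Log2 signal minus the 75th percentile of the array (horizontal axis) for each of the 14 probes of the 9 measured genes (vertical axis), as a circle for the Il18+/+ array and a diamond for the Il18-/- array. The grey line joins both arrays, and levels of different probes are not comparable. The lines are longest for Hspb1, from 3.32 to 2.79, and Hspa1a, from -0.22 to -0.65, while circle and diamond nearly coincide for the 3 probes of Hspa8.

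Hspb1 encodes the small heat shock protein HSP27, which holds unfolded proteins and guards actin filaments. Its probe gave a signal of 6925 in Il18+/+ and of 4920 in Il18-/-, which are levels of 3.32 and 2.79. The Il18-/- array was thus the lower one, by 1.44-fold, a log2 difference of -0.52. A share of 3.49% of all measured genes was as low or lower. The error that the extraction software gives for this difference is 0.20, which rests on its error model for single spots and not on animals. The difference was -0.59 with quantile normalization, with loess and on the scale of the deposited table, which is past 1.5-fold. It was -0.45 after the median difference of the 18 nearest measured spots on the glass, -0.08, was subtracted.

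Hspa1a encodes the stress-inducible HSP70. Its signal was 597 in Il18+/+ and 454 in Il18-/-, levels of -0.22 and -0.65, against a local background of about 43 and 41. It was 1.34-fold lower in Il18-/-, a difference of -0.43 with a software error of 0.20, and 5.47% of all measured genes were as low or lower. Hspa1b is a near-identical neighbouring copy, and whether the Hspa1a probe also read its transcript is uncertain. The nearest spots around the Hspa1a probe had a median difference of 0.05, and the Hspa1a difference was -0.47 after it was subtracted.

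Dnajb1 and Hsph1 encode partners of HSP70, the J-domain protein HSP40 that loads clients and stimulates ATP use, and the HSP110 protein that exchanges its nucleotide. Dnajb1 had levels of 4.76 in Il18+/+ and 4.51 in Il18-/-, a difference of -0.25 with a software error of 0.20. It was 1.19-fold lower, and 13.3% of all measured genes were as low or lower. Both Hsph1 probes were lower in Il18-/-. One went from 3.13 to 2.91, a difference of -0.21, and the other from 4.96 to 4.89, a difference of -0.06. Their mean difference was -0.14 with a standard deviation of 0.10 between probes (n = 2 probes), and with the brightest probe alone it was -0.06. The Hsph1 difference is thus of the size of the disagreement between its probes.

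Hspa8 encodes HSC70, the constitutive HSP70 that also strips clathrin from vesicles. Its 3 probes went from 3.92 to 3.86, from 6.64 to 6.70 and from 8.28 to 8.29. They had no common direction, and their mean difference was 0.00 with a standard deviation of 0.06 between probes (n = 3 probes). The brightest Hspa8 spot gave signals of 216551 and 221753 and was not saturated on either array.

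Hsp90aa1 and Hsp90ab1 encode the inducible and the constitutive form of cytosolic HSP90. The difference of Hsp90aa1 was smaller than those of Hspb1, Hspa1a, Dnajb1 and Hsph1, and Hspd1 and Hspe1 read higher. Whether heat shock units had a part in any of these differences was not tested. Hsp90aa1 had levels of 5.97 in Il18+/+ and 5.94 in Il18-/-, a difference of -0.03. Hsp90ab1 had levels of 7.47 and 7.42, a difference of -0.05. Both differences were smaller than the software error, and both were below the median of all measured genes. That error was 0.20 for every member probe, so it does not tell the precision of single spots apart. Repeated spots with a level above 2 had a smaller median standard deviation, 0.05. Aligning the medians of the arrays, which adds the same amount to every gene, gave 0.03 and 0.01. The spots around the Hsp90ab1 probe had a median difference of -0.16, as low as in 1.28% of the measured spots, and subtracting it gave 0.11 for Hsp90ab1.

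Hspd1 and Hspe1 encode HSP60 and HSP10, the barrel and the lid of the mitochondrial chaperonin. Hspd1 had a level of 4.62 in Il18+/+ and 4.69 in Il18-/-, a difference of 0.07. It turned to -0.03 with quantile normalization and to -0.01 with loess. All 3 Hspe1 probes were higher in Il18-/-. They went from 1.78 to 1.94, from 3.94 to 4.03 and from 4.28 to 4.41. The mean difference of Hspe1 was 0.13 with a standard deviation of 0.04 between probes (n = 3 probes), and it ran from 0.06 to 0.19 in the 12 settings other than the spike-in scaling. The gene table lists 23 pseudogenes named after Hspd1 and 7 named after Hspe1, so which copies a probe read is uncertain.

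**Figure D2:**
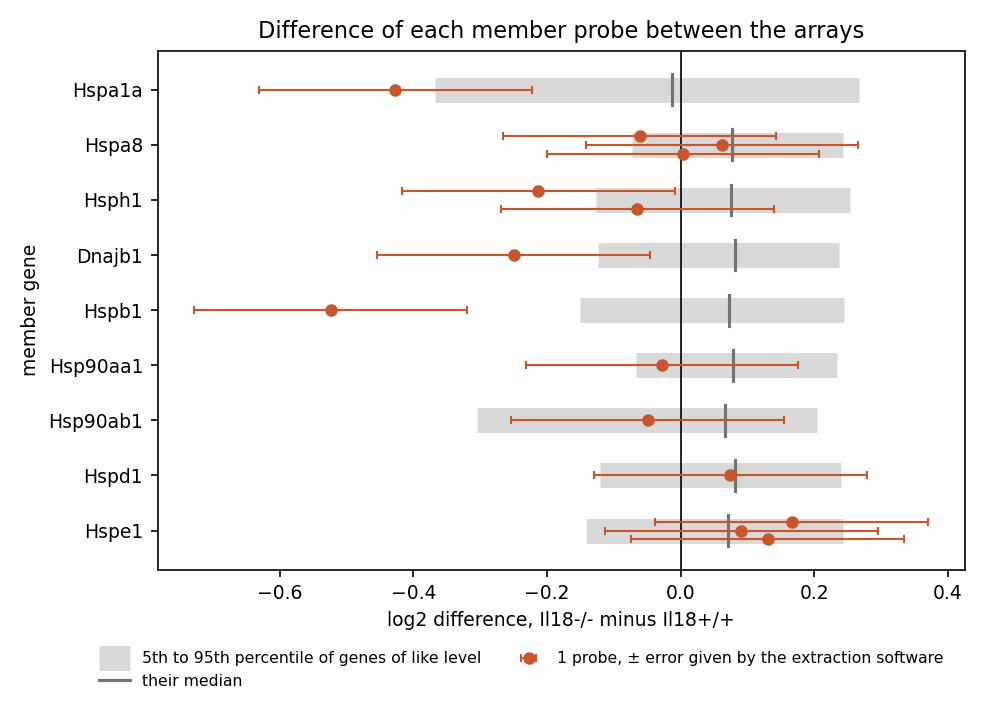
Log2 difference, Il18-/- minus Il18+/+ (horizontal axis), of each probe of the 9 measured members (vertical axis), with bars for the error given by the extraction software. That error is 0.20 for every probe shown. Grey bands run from the 5th to the 95th percentile of measured genes within 0.5 of the level of the member, with their median as a line. The probes of Hspb1, Hspa1a and Dnajb1 and the Hsph1 probe at -0.21 lie left of their bands, and the other Hsph1 probe and the probes of the other genes lie inside theirs.

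Bright genes read slightly higher on the Il18-/- array, so each member was also set beside the measured genes whose mean level lay within 0.5 of its own. The median difference of such genes ranged from -0.01 around Hspa1a to 0.08 around Hspd1. On this footing 8 of the 9 members lay below the median of genes of like level, which by definition splits those genes evenly. Hspe1 was the exception, and Hspd1 was only -0.008 from its median. Hspb1 stood at -0.60 from the median of its genes of like level, and 0.412% of those 1214 genes were as low or lower. For Dnajb1 the share was 1.47% of 543 genes, for Hspa1a 3.43% of 2068 and for Hsph1 4.45% of 764. The share was 11.3% for Hsp90aa1, 13.9% for Hsp90ab1, 19.9% for Hspa8, 45.5% for Hspd1 and 71.8% for Hspe1. This count and these shares describe where the genes stood on 1 pair of arrays and were not tested.

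The wider chaperone network was read from lists of genes by role, with overlaps between the heat-inducible list and the others. Counted once each over all lists but that of the endoplasmic reticulum chaperones, 98 of 103 related genes were measured. Of these, 37 were lower and 61 higher in Il18-/-, and their median was 0.04. Of all measured genes, 47.4% were lower and 52.6% higher. At least 1.5-fold, 2 of the related genes were lower and 0 higher, against 2.57% and 1.68% of all measured genes. Cryab, which encodes the small heat shock protein alphaB-crystallin and lies near Il18 on chromosome 9, had levels of 3.20 and 1.97 and was 2.33-fold lower by both of its probes. Dnaja4, which encodes a J-domain co-chaperone, had levels of 0.75 and 0.14 and was 1.53-fold lower on average, its 2 probes differing by -0.95 and -0.28. Its call at 1.5-fold thus rests on 1 probe.

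Of the 7 other small heat shock genes measured, 5 were lower and 2 higher, with a median of -0.21, which ran from -0.27 to -0.14 in the 12 other settings apart from the spike-in scaling. Hspb2, named after its values were seen because it also lies near Il18, beside Cryab, had dim levels of -2.21 and -2.03, a difference of 0.18. Of 15 cytosolic J-domain genes measured, 8 were lower and 7 higher, with a median of -0.07. The 8 other HSP70 and HSP110 genes were divided evenly, 4 lower and 4 higher, with a median of 0.03. Their largest differences were -0.29 for Hspa13, whose probes ranged from -0.71 to 0.13, -0.25 for Hspa1l, at the dim levels of -4.03 and -4.27, and 0.20 for Hspa2.

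HSP90 co-chaperones were lower in 7 and higher in 12 of 19 measured genes, with a median of 0.02. The largest differences were -0.33 for Cdc37l1, -0.27 for Chordc1 and 0.26 for Ahsa2, the last at dim levels of -4.31 and -4.06. Of 8 genes for HSP70 exchange factors and co-factors 2 were lower and 6 higher, with a median of 0.07. Bag3, a heat-inducible exchange factor of the autophagy route, was 1.17-fold lower, while Bag4 and Bag5 differed by 0.13 and 0.14. The heat shock factors themselves differed little. Hsf1, the main heat-responsive factor, had levels of 1.81 and 1.76, a difference of -0.05, and Hsf2 differed by 0.10. Hsf4 and Hsf5, both dim, differed by -0.09 and -0.23, and Hsbp1, which binds heat shock factor 1, by 0.13.

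Most genes of the chaperonin and of the mitochondrial lists read higher in Il18-/-. Of 15 genes for TRiC, the cytosolic chaperonin, and its partner prefoldin, 4 were lower and 11 higher, with a median of 0.08. Cct2 and Tcp1 read 1.18-fold and 1.16-fold higher, and Pfdn5 read 1.22-fold lower. Of 15 measured mitochondrial chaperone, import and protease genes, 14 were higher and 1 lower, with a median of 0.09. Hscb, a J-domain protein of iron-sulphur cluster transfer, differed by 0.26 and Tomm70a, an import receptor, by 0.19, while Yme1l1, at dim levels of -2.17 and -2.51, was 1.27-fold lower. Both medians stayed above 0 in each setting except the spike-in scaling, which gave -0.23 for TRiC with prefoldin and -0.22 for the mitochondrial list. Genes of the level of Hspe1 and Hspd1 had medians of 0.07 and 0.08.

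**Figure D3:**
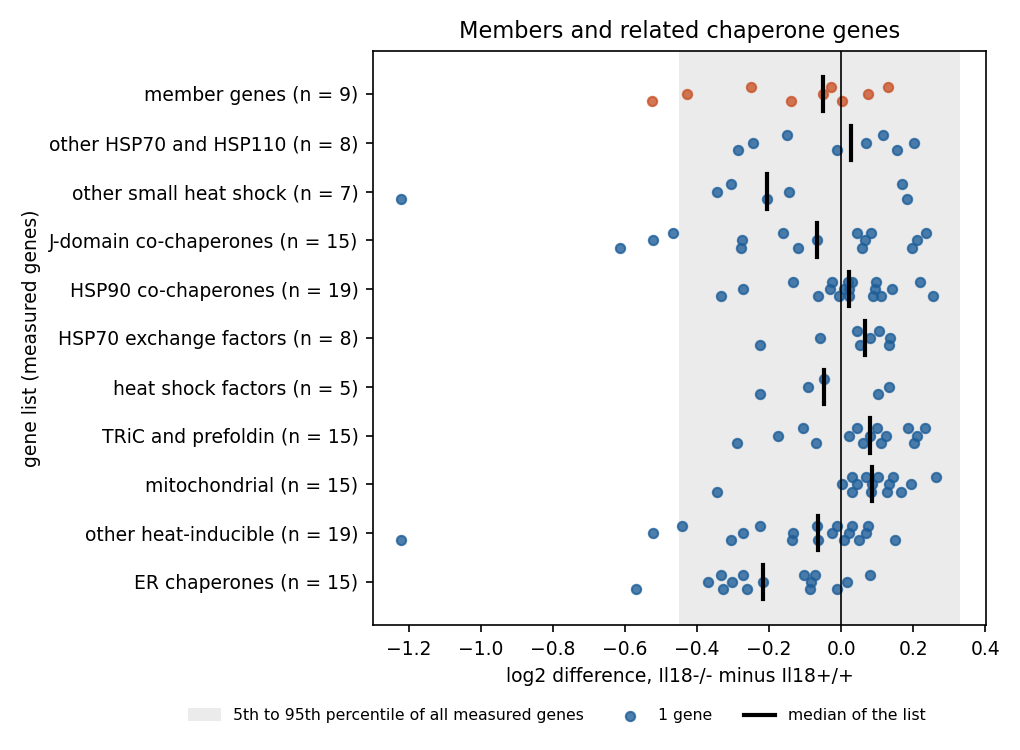
Log2 difference, Il18-/- minus Il18+/+ (horizontal axis), of each measured gene of the members and of 10 related lists (vertical axis), 1 point per gene with a black line at the median of the list. The grey band runs from the 5th to the 95th percentile of all measured genes, -0.45 to 0.33. The medians of the other small heat shock genes, at -0.21, and of the endoplasmic reticulum chaperones, at -0.22, are the lowest, and the point at -1.22 is Cryab, which stands in both the small heat shock and the heat-inducible list.

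Of 19 genes known to be heat-inducible in many cells, most of them already counted above, 12 were lower and 7 higher. Their median was -0.06, and Cryab was the 1 gene at 1.5-fold, while 47.4% of all measured genes were lower. Chaperones of the endoplasmic reticulum, which answer to another stress pathway, were lower in 13 of 15 cases, with a median of -0.22. Sdf2l1 was 1.48-fold lower, Pdia3 1.29-fold lower and Hspa5 1.26-fold lower. For the members the median was -0.05, so the difference of the endoplasmic reticulum list was the larger, and this contrast between lists was not tested. A pair of heat shock units stood in the promoter of 1560 measured genes other than the members. Of these, 47.4% were lower, with a median of 0.01, against 46.8% of 12495 measured genes with a promoter in the table, with a median of 0.01. Among 55 genes with 3 units in a row, 29 were lower, with a median of -0.02 and with 0 lower and 0 higher by at least 1.5-fold.

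Markers of several cell types differed between the pools, and their part in the members' differences was not tested. Choroid plexus markers were lower in 12 of 12 cases, with a median difference of -1.10, and the sum of their levels on the linear scale, in units of the 75th percentile of the array, was 381 in Il18+/+ and 192 in Il18-/-. Oligodendrocyte markers were lower in 7 of 8 cases, with a median of -0.22 and sums of 243 and 185, and mural and meningeal markers in 8 of 10, with a median of -0.25 and sums of 28.8 and 24.2. Liver markers were higher in 7 of 7 measured cases, with a median of 2.99 and sums of 1.79 and 6.38. The liver sums weigh Apoa2 most in Il18+/+, a gene with levels of 0.41 and 1.32 whose 2 probes differed by 0.22 and 1.59, so they show a smaller change than the median. Medial habenula markers were higher in 6 of 6 measured cases, with a median of 1.45 and sums of 2.21 and 8.09. Apoa1 of the liver list and Chrna3 of the habenula list were not well above background on both arrays. Ependymal markers had a median of 0.33, with 3 of 4 higher, and sums of 4.36 and 5.34. Endothelial markers were lower in 3 of 7 cases, with sums of 24.5 and 24.0, astrocyte markers in 2 of 7, with sums of 67.0 and 68.1, microglial markers in 4 of 6, with sums of 13.12 and 13.06, and neuronal markers in 5 of 6, with sums of 226 and 218. The dentate gyrus sums were 12.6 and 16.3 and the neocortical sums 5.21 and 5.01. Measured markers are by definition well above background on both arrays, so their values cannot show whether a cell type was absent from a pool. The summed level of the 9 members was 406 in Il18+/+ and 393 in Il18-/-.

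**Figure D4:**
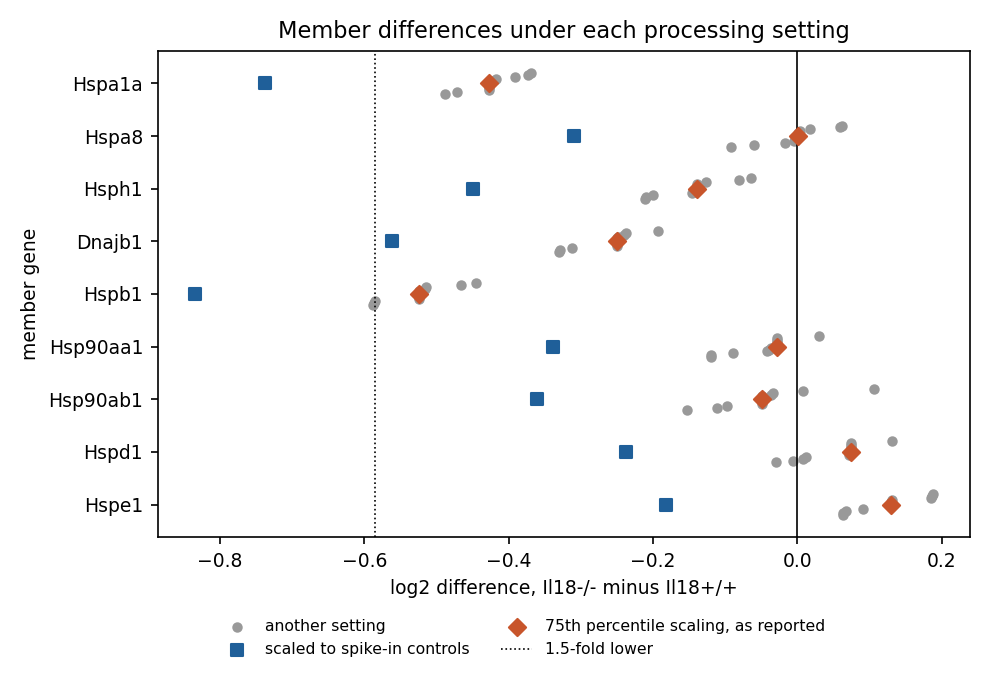
Log2 difference, Il18-/- minus Il18+/+ (horizontal axis), of each measured member (vertical axis) as reported (diamond), under 12 other settings (grey points) and under scaling to spike-in controls (square). The dotted line marks 1.5-fold lower. Hspb1, Hspa1a, Dnajb1 and Hsph1 stay left of 0 in each setting, while the points of Hspa8, Hsp90aa1, Hsp90ab1 and Hspd1 lie on both sides of it.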

How the data were processed

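The submitters' processing notes name Agilent Feature Extraction 10.10.1.1. The deposited intensity had its background subtracted and was detrended by array, with no scaling across arrays, per the file headers, which place both arrays on 1 slide and in 1 scan. The authors' deposited value table holds this intensity times a constant (2.05 in the Il18+/+ column, 1.92 in the Il18-/- column), linear and not centred, with column medians of 151.5 and 139.5. What the constants were set to is unknown.

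Control spots and flagged spots (124 and 177) were left out. Log2 intensity minus the 75th percentile of the array, a signal of 694.8 and 709.9, was averaged over spots of a probe and over the probes of a gene well above background on both arrays. Accessions without versions were matched to the RefSeq gene table (GRCm38.p6), giving 27229 probes 1 symbol and leaving 28452 unnamed. Member probes had 1 spot each. Genes were counted at 1.2-fold and 1.5-fold, with no test. All 10 members were named, with every related gene at 1.5-fold, or else the 3 of a list with the largest differences. All 5 heat shock factor genes and Hspb2 were added after their values were seen. The members and lists were chosen with earlier results of these data known. The calculations were checked on made-up arrays with known differences. No protein comparison was made here.

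The 12 alternatives listed at the outset, with those earlier results known, were array medians, quantile, loess (lowess of statsmodels) and spike-in scaling (8 control probes), normexp (offset 50) on the median signal, which stood in for the mean signal, no background correction, dim probes kept or filtered more strictly, the brightest or the median probe per gene, flagged spots kept, and the deposited table. Subtracting the 18 nearest spots was added after seeing the data. Normexp used limma 3.58.1 in R 4.3.3. All else ran in Python 3.11.15 with pandas 2.3.3, numpy 2.4.6, statsmodels 0.14.6 and scipy 1.17.1.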

Additional observations from a re-analysis of the deposited data

How the results depend on the processing

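Scaling to spike-in controls lowered every difference by 0.31, so that the median of all measured genes was -0.30. All 9 members were then below 0, as were 94.6% of all measured genes. Relative to the median of all measured genes, the median of the members was -0.06, as with the 75th percentile. In this scaling the median was -0.36 for the members, -0.28 for other HSP70 and HSP110 genes, -0.52 for other small heat shock genes, -0.38 for J-domain genes, -0.29 for HSP90 co-chaperones, -0.24 for HSP70 exchange factors, -0.36 for heat shock factors, -0.23 for TRiC and prefoldin, -0.22 for the mitochondrial list, -0.37 for heat-inducible genes and -0.53 for endoplasmic reticulum chaperones. Under the other 12 alternatives each of these medians moved by less than 0.12, the median standard deviation between probes of a gene. Leaving the spike-in scaling aside, the number of lower members ran from 4, when the medians of the arrays were aligned, to 8, with quantile normalization and with loess. The share of all measured genes that were lower moved too. It was 36.1% with aligned medians, 51.4% with quantile normalization and 49.8% with loess. The median of the members ran from -0.15 with loess to 0.01 with aligned medians.

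The counts of all genes at 1.5-fold, lower and higher, were 107 and 113 with normexp, 147 and 132 with no background correction, 1357 and 815 with no filter on dim probes and 195 and 156 with the stricter filter, beside 405 and 264. The cause was not tested, except that the filters change how many genes enter, 20656 and 13524. No paired analysis was possible because each genotype had 1 array. For the same reason no replicate could be left out. Of the 9 measured members, 6 rest on 1 probe and 1 spot per array, so their differences have no second reading within these data.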
